A study of Mus musculus with 4 samples.

Results

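Expression in mouse R1 embryonic stem (ES) cells grown as unattached embryoid bodies was compared between 2 arrays, whose titles name aggregation and suspension. The members of the comparison were the genes at least 2-fold apart between these arrays after rescaling, with a signal at or above the array median on at least 1 of them. Of 6045 genes and unnamed probe sets that reached this signal (called features here), 844 were members, which is 14.0%. Of the members, 376 were higher in aggregation (6.22% of features) and 468 were lower (7.74%). A single symbol named 320 of the first and 416 of the second. Each group is 1 array, so no test was possible, no replicate error can be given, and every difference below is a description of these arrays.

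The R1 line is an established line of mouse ES cells. According to the labels, both embryoid body arrays came from R1 cells kept unattached for 48 hours in DMEM with LIF and beta-mercaptoethanol. Their labels differ in the title alone and give both arrays one sample identifier, so the spread between arrays and the culture form named in the titles cannot be told apart. The R1 gelatin array came from cells grown in DMEM on gelatin with the same supplements, under conditions for undifferentiated growth. A neurosphere array from the E13.5 telencephalon, grown with FGF2 in a medium labelled DMEM0 F12, completed the series of 4 MG_U74Av2 arrays.

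Embryoid bodies are floating clusters of ES cells, made either by letting cells aggregate or by leaving them in suspension. LIF signals through gp130 receptors to the transcription factor STAT3, which induces feedback inhibitors such as Socs3 and holds ES cells undifferentiated. BMP signals act beside LIF by inducing Id proteins, which block basic helix-loop-helix factors. Cells inside a cluster can see less oxygen and glucose than cells at its surface, and hypoxia-inducible factors then raise glucose uptake, glycolysis and prolyl hydroxylases. Immediate early genes are induced within minutes by serum, growth factors, stress or handling, and their RNAs are short-lived.

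Marker genes bore out the label of ES cells in both arrays. All 7 ES cell markers (Pou5f1, Zfp42, Sox2, Nanog, Dppa5a, Tdgf1 and Utf1) lay above the array median on both, and none of them was 2-fold apart. Pou5f1, the Oct4 factor, had a scaled signal of 7911 in aggregation, 10547 in suspension and 10687 on gelatin. The summed signal of the 7 markers was 59220, 65536 and 53435 in the same order. Of 11 primitive endoderm markers, 6 reached the median in aggregation and 4 in suspension. For fibroblasts it was 3 of 7 on each, for macrophages 2 of 5 on each, for endothelium 1 and 3 of 5, and for neural progenitors 1 and 0 of 4. The macrophage markers Ptprc, Lyz2 and Itgam and the endothelial markers Kdr and Cdh5 lay under the 25th percentile of both arrays. The macrophage markers Csf1r (878 in aggregation, 547 in suspension) and Cd68 (905 and 769) lay above the median on both. So did the endothelial marker Eng (1291 and 1242), while Tek and Pecam1 reached the median in suspension alone.

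The arrays differed in more than the genes of the comparison. Deposited signals of the suspension array were on a scale 45.6 times that of aggregation, so each array was brought to one trimmed mean. After that, control probe sets for 18S ribosomal RNA were 3.88 to 5.38 times as bright in aggregation, and bacterial transcripts spiked into the samples 1.43 to 1.77 times. Gapdh control probe sets lay 1.19 to 1.23 times higher in aggregation, and those of actin 0.983 to 1.13 times. The gelatin array was further off. Against it, spiked transcripts were 5.14 to 9.18 times as bright in aggregation and 3.22 to 5.61 times in suspension. For 18S the ratios were 6.40 to 14.8 and 1.65 to 2.75, and for Gapdh 1.90 to 2.09 and 1.57 to 1.75. Those of actin were 1.38 to 1.61 and 1.33 to 1.55. The part of these differences in the results was not tested.

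Most members were dim. The features were split by mean signal into 5 equal bins, numbered from the dimmest (1) to the brightest (5). In bin 1, 20.1% of features were 2-fold higher in aggregation and 24.9% were 2-fold lower. The shares were 5.62% and 7.61% in bin 2, 2.15% and 3.14% in bin 3, 1.82% and 1.90% in bin 4, and 1.41% and 1.16% in bin 5. With no signal filter they were 6.57% and 8.41% of 9840 features. The median absolute difference went from 0.86 in bin 1 to 0.24 in bin 5, on the log2(signal + 32) scale used for all differences here. Over all features the median difference was -0.01. In 175 members (20.7%) the lower signal was under the 25th percentile of its array, and no ratio of signals is given for those. Bins 4 and 5 together held 76 members of 2418 features (3.14%), 39 higher in aggregation and 37 lower.

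**Figure D1:**
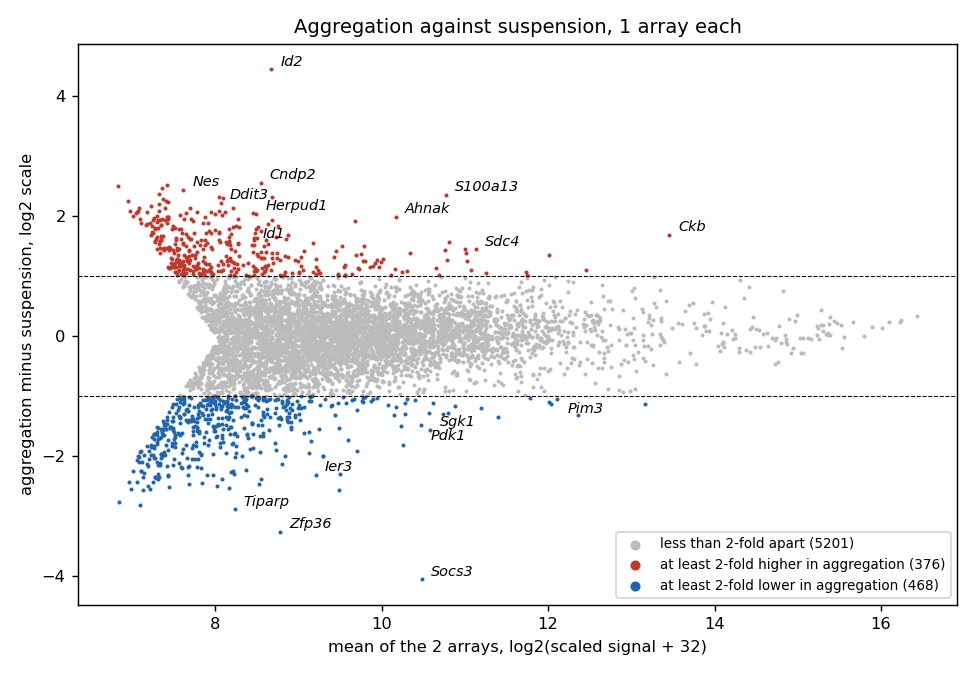
Difference between the aggregation and suspension arrays (y axis, log2 scale) against the mean of both (x axis, log2 of scaled signal + 32), 1 point per feature, with dashed lines at 2-fold. The 844 members fan out at low signal, while Id2 (4.44) and Socs3 (-4.06) stand outside the rest at middle signal.

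**Figure D2:**
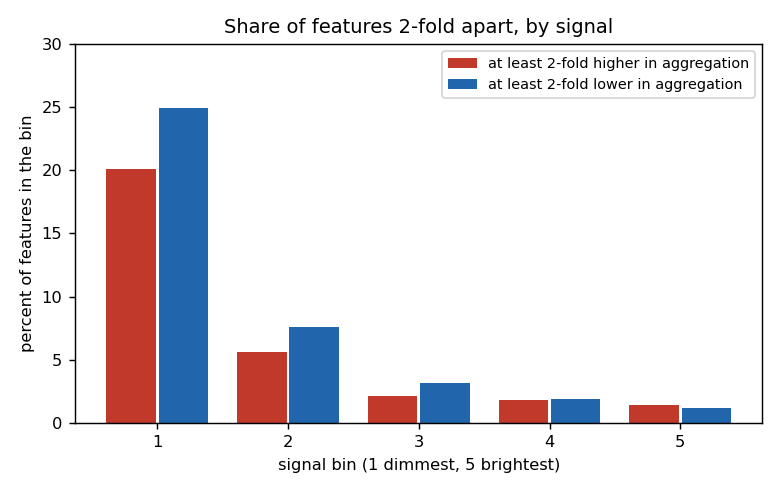
Percent of the features in each of 5 bins of mean signal (x axis) that were at least 2-fold higher (red) or lower (blue) in aggregation. Bin 1, the dimmest, held 20.1% and 24.9%, and bin 5 held 1.41% and 1.16%.

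Id2 had the largest difference of the 6045 features with 32 added before log2. Its probe set (93013_at) gave a signal of 1869 in aggregation, 55.8 in suspension, 1379 on gelatin and 1938 in neurospheres. Suspension was thus the low array of the 4, and its value lay under the 25th percentile of that array (72.6). The difference was 4.44 on the log2 scale. Its size depends on the value added: it was 5.04 with 1 added and 3.66 with 100 added, where Socs3 at -3.82 was larger. Id2 encodes an inhibitor of basic helix-loop-helix transcription factors and is a classical BMP target. Id1, a second member of that family, had 566 in aggregation, 178 in suspension and 682 on gelatin, a difference of 1.51. Suspension was again low, and gelatin lay beside aggregation for both genes. Id3 with 638, 451 and 487 and Id4 with 265, 236 and 229 were within 2-fold on all 3 R1 arrays. Of 11 genes past the signal filter in the list of Id genes and BMP targets, Id2 and Id1 were 2-fold higher (18.2%, against 6.22% of all features). None was 2-fold lower, and the median difference was -0.06. Id2 and Id1 passed the filter through the aggregation array alone, where they were high, so the count is no support for the list. With the array median required on both arrays, 0 of 6 were higher. Bmp4, which encodes a ligand of the pathway, had 1011, 963 and 1233, and Smad1, one of its signal transducers, had 147, 257 and 525.

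Cndp2, a cytosolic dipeptidase, came after Id2 among named genes higher in aggregation, with 32 added; Hoxb3, Pik3c2a and Klf17, dim in suspension, passed it with 1 added. Its probe set (160349_at) had 873 in aggregation, 123 in suspension and 715 on gelatin, so aggregation was 7.12 times as bright as suspension, with gelatin beside aggregation. Of 9 metallopeptidase and dipeptidase genes past the filter, 2 were 2-fold higher in aggregation (22.2%, against 6.22% of all features) and 0 lower. The second was Mme, the cell surface endopeptidase neprilysin, with 247, 56.8 and 281. Cndp2 and Mme both passed the filter through the aggregation array alone, where they were high, so the count is no support for the list.

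The 15 largest differences upward among named genes ran from 2.22 to 4.44. In 9 of these the suspension signal was under its 25th percentile. These were Id2 itself, the homeobox gene Hoxb3, the lipid kinase gene Pik3c2a, the Krüppel-like factor gene Klf17, Nes, the sphingosine phosphate receptor gene S1pr4, the collagen gene Col11a1, the transcription factor gene Deaf1 and the complement protease gene Masp2. Other probe sets of Pik3c2a and Klf17 gave -0.16 and -0.07. The other 6 had a measured signal on both arrays. Besides Cndp2 these were S100a13, Pam16, Chrna7, Mob2 and Ddit3. S100a13, a calcium-binding protein that takes part in secretion without a signal peptide, had 3912 in aggregation, 742 in suspension and 647 on gelatin. Its other probe sets gave differences of 3.49, 0.44 and -0.36, so they did not share one direction. Pam16, a part of the mitochondrial import motor, had 883, 152 and 777. Chrna7, a nicotinic receptor subunit, had 556, 86.6 and 140, and Mob2, a regulator of NDR kinases, had 574, 90.9 and 105. Gelatin thus lay with aggregation for Pam16 and with suspension for S100a13, Chrna7 and Mob2. Over the 15 genes it was nearer to aggregation in 7.

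Socs3 had the largest difference in the other direction. The feedback inhibitor of LIF and STAT3 signalling gave 319 in aggregation, 5805 in suspension and 621 on gelatin with probe set 92232_at, a difference of -4.06 and a ratio of 18.2. A second Socs3 probe set gave 676, 2165 and 609, a difference of -1.63. Both put suspension high and the other R1 arrays low. Zfp36, the RNA-binding protein tristetraprolin that speeds the decay of short-lived messages, had 110 in aggregation, 1335 in suspension and 71.9 on gelatin with probe set 92830_s_at, a difference of -3.27. The s in that name marks probes shared by more than one transcript. Tiparp, a poly(ADP-ribose) polymerase family enzyme induced by the aryl hydrocarbon receptor and by growth factors, had 78.6, 788 and 774 with probe set 93985_at, a difference of -2.89. Here aggregation was the low array, and gelatin matched suspension. Tiparp was also the sole member among 3 aryl hydrocarbon receptor target genes past the filter.

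The 15 largest differences downward ran from -2.45 to -4.06. In 8 the aggregation signal was under its 25th percentile of 67.2: the lymphocyte receptor gene Cd160, the iron-sensing ubiquitin ligase gene Fbxl5, Epo, the matrix gene Tnc, the magnesium transporter gene Slc41a1, the lysosomal sulfatase gene Arsa, the chemokine gene Ccl2 and the troponin gene Tnnt1. Other probe sets of Tnc, Arsa and Tnnt1 gave 0.16, 0.15 and 0.71. Epo, which encodes erythropoietin, had 25.6 in aggregation, 308 in suspension and 22.0 on gelatin. Beside Socs3, Zfp36 and Tiparp, both signals were measured for Rxrb, Xrcc1, Myl6b and H2-K2. Rxrb, a retinoid X receptor, had 263, 1721 and 1026, and Xrcc1, a scaffold of DNA strand break repair, had 87.5, 657 and 511. The myosin light chain gene Myl6b had 77.3, 584 and 272, and the class I histocompatibility gene H2-K2 had 125, 839 and 540. Gelatin lay nearer to suspension for these 4 genes. Other probe sets of Xrcc1 and Myl6b gave -0.49 and 0.53.

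Genes of the LIF and STAT3 response and immediate early genes leaned towards suspension. Of 12 LIF and STAT3 response genes past the filter, 3 were 2-fold lower in aggregation (25%, against 7.74% of all features), 0 were higher, and the median difference was -0.44 against -0.01 for all features. These were Socs3, Junb and Pim3. Junb, an AP-1 subunit, had 816 in aggregation, 1803 in suspension and 354 on gelatin, and 437, 1538 and 390 with its other probe set. Pim3, a serine/threonine kinase, had 3031, 6298 and 2908. Suspension was the high array for all 3 genes. Gelatin lay within 2-fold of aggregation for Socs3 and Pim3 and was 2-fold below both for Junb. Klf4, a pluripotency factor driven by STAT3, had 2285, 4336 and 3499, and the Socs3 relative Socs2 had 1231, 2362 and 2082. Both stayed short of 2-fold, with differences of -0.91 and -0.92. The pathway's own components were closer: Stat3 had 1734, 2107 and 1370, Lifr, the LIF receptor, had 315, 492 and 853, and Il6st, the shared gp130 receptor, had 447, 413 and 394. A second Il6st probe set gave 145, 450 and 753, a difference of -1.44.

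Of 36 immediate early genes past the filter, 8 were 2-fold lower in aggregation (22.2%, against 7.74% of all features) and 1 was higher. A difference below 0 was found in 24 of the 36, against 50.7% of all features. Of the 8, Zfp36, Tiparp, Fos and Egr2 passed the filter through the suspension array alone, where they were high. They are thus no support for a lean of the list. With the array median required on both arrays, 4 of 29 were 2-fold lower and 1 higher. No share over all features was computed under that filter. This count and those of other lists under it thus have no background beside them. The median signal of the 36 genes, 665, lay between the medians of bins 3 (578) and 4 (988), in which 3.14% and 1.90% of features were 2-fold lower. That median does not describe Zfp36, Tiparp, Fos and Egr2, which lay under the median of the aggregation array (225). In the dimmer bins 1 and 2, 24.9% and 7.61% of features were 2-fold lower. Zfp36, Tiparp and Ier3 led the 8. Ier3, a regulator of cell survival, had 234 in aggregation, 1286 in suspension and 156 on gelatin. The other 5, named after their values were seen, were Fos, Sgk1, Egr2, Egr1 and Junb. Fos, the partner of Jun proteins in AP-1, had 197, 888 and 106, with a dim second probe set at 0.72. Egr1, a zinc finger factor, had 691, 1572 and 343. Egr2, its relative, had 152, 401 and 34.9. The kinase gene Sgk1 had 863, 2611 and 3073. Gelatin lay nearer to aggregation for 6 of the 8 and nearer to suspension for Tiparp and Sgk1. Plk2, a polo-like kinase and the exception in direction, had 1493, 601 and 1385. Many genes of the class stayed within 2-fold, such as Ier2 with 2476, 4242 and 3411, Atf3 with 436, 376 and 514, and Klf2 with 918, 918 and 980.

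**Figure D3:**
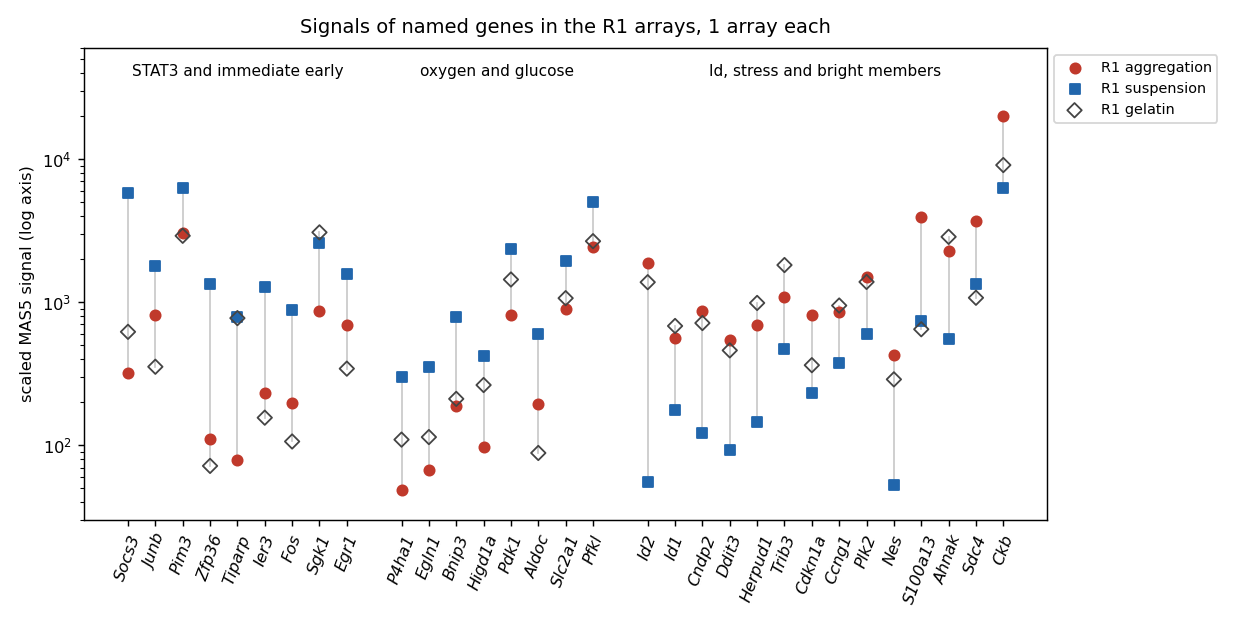
Scaled signal (y axis, log axis) of named genes on the R1 aggregation, suspension and gelatin arrays, 1 symbol per array, in 3 groups of genes. Suspension is the high array in the first 2 groups except for Sgk1, and gelatin lies near aggregation for most genes but beside suspension for Tiparp and S100a13.

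The genes with the largest differences in these lists are shown with the 250 bases before their start site, with base -1 next to the start. The letters come from the RefSeq table of assembly GRCm38.p6 and are written on the gene's own strand. Capitals mark the motif searched: TTCNNNGAA, the STAT site, in Socs3 (chr11:117969367-117969616, minus strand), and the CArG box bound by serum response factor in Zfp36 (chr7:28379229-28379478, minus strand).
Socs3: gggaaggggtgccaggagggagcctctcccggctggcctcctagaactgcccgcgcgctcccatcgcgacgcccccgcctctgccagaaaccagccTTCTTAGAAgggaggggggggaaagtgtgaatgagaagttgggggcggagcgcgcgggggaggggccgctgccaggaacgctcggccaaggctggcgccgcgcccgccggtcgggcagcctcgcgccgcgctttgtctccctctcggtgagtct
Zfp36: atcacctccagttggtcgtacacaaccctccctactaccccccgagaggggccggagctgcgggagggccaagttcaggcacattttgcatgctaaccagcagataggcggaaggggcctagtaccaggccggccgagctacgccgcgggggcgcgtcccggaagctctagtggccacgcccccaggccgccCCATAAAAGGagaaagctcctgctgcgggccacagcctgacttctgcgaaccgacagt
The STAT site of Socs3 began at base -154 and the CArG box of Zfp36 at base -58. Searched on both strands, a STAT site was in 7.02% of 32851 promoters and in 7.03% of those of the 4297 named features with an entry, and a CArG box in 1.47% and 1.56%. Among the 7 immediate early genes that were 2-fold lower and had an entry, 2 held a STAT site and 2 held a CArG box. Of the 3 lower LIF and STAT3 response genes, 1 held a STAT site, which was Socs3. No CArG box was found for Fos or Ier3, and no STAT site for Junb. A match is a description of letters and says nothing of binding in these cells.

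Genes of oxygen and glucose use lay mostly on the suspension side. Of 23 glycolysis and hypoxia genes past the filter, 8 were 2-fold lower in aggregation (34.8%, against 7.74% of all features) and 0 were higher. Of these 8, P4ha1, Egln1, Bnip3, Higd1a and Aldoc passed the filter through the suspension array alone, where they were high. They are thus no support for a lean of the list. With the array median required on both arrays, 3 of 18 were 2-fold lower and 0 higher. The median difference of the list was -0.67, and 20 of its 23 genes had a difference below 0, against 50.7% of all features. The list's median signal of 1351 lay between the medians of bins 4 (988) and 5 (2406), in which 1.90% and 1.16% of features were 2-fold lower. That median does not describe P4ha1, Egln1, Bnip3, Higd1a and Aldoc, which were dimmer on both arrays. In the dimmer bins 1 and 2, 24.9% and 7.61% of features were 2-fold lower. P4ha1, a collagen prolyl hydroxylase, had 48.8 in aggregation, 299 in suspension and 110 on gelatin. Egln1, the prolyl hydroxylase that marks hypoxia-inducible factor for decay and is itself induced by it, had 66.9, 351 and 114. Bnip3, a mitochondrial protein of mitophagy, had 188, 792 and 211. Suspension was the high array for all 3 genes, and the aggregation signals of P4ha1 and Egln1 were under the 25th percentile.

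The remaining 5 genes, named after their values were seen, were Higd1a, Pdk1, Aldoc, Slc2a1 and Pfkl. Higd1a, a mitochondrial protein induced by hypoxia, had 97.0 in aggregation, 423 in suspension and 264 on gelatin. Pdk1, the kinase that closes pyruvate dehydrogenase, had 818, 2355 and 1440. Aldoc, an aldolase, had 194, 599 and 88.5. Slc2a1, the glucose transporter Glut1, had 903, 1928 and 1067, and Pfkl, a phosphofructokinase, had 2425, 5004 and 2667. Gelatin was nearer to aggregation for 6 of the 8 and nearer to suspension for Higd1a and Pdk1. Over all 23 genes it was nearer to aggregation in 18.

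The bright glycolytic enzymes Ldha, Pgk1 and Tpi1 lay on the same side but short of 2-fold. The glycolytic enzyme Gapdh, not among the 23 genes, went the other way. Its control probe sets were 1.19 to 1.23 times as bright in aggregation. Ldha, lactate dehydrogenase, had 6186 in aggregation, 11519 in suspension and 5789 on gelatin. Pgk1, phosphoglycerate kinase, had 5403, 10072 and 4713, and Tpi1, triosephosphate isomerase, had 2854, 5443 and 3507. Ddit4, an inhibitor of mTOR signalling induced by hypoxia and by stress, went against the list with 1599, 828 and 2195. The Vegfa probe set did not reach the signal filter. Respiratory chain genes did not share the pattern: of 21 past the filter, 1 was 2-fold higher (Ndufa2, with 1403, 606 and 1124), 0 were lower, and the median difference was 0.25.

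The motif ACGTG or GCGTG, the core of sites bound by hypoxia-inducible factors, was found at least once before the start of all 8 of these genes. It is a common run of letters, present in 38.6% of all promoters and 62.9% of those of named features, and it was also found in all 7 immediate early genes searched. The promoters of Bnip3 (chr7:138909507-138909756, minus strand) and P4ha1 (chr10:59323046-59323295, plus strand), which held 5 and 3 matches on both strands with overlaps counted, are shown with the matches in capitals.
Bnip3: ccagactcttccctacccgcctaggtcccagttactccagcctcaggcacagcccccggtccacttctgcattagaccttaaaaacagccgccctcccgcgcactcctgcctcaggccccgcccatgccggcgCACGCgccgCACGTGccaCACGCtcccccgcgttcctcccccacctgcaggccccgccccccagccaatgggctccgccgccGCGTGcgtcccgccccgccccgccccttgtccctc
P4ha1: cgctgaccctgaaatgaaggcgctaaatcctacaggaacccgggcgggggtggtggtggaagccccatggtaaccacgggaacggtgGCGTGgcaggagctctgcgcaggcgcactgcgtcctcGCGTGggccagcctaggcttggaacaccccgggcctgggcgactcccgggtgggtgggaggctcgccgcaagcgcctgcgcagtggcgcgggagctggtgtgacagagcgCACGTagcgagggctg

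Some stress genes lay on the aggregation side. Of 27 genes of the amino acid and ER stress response past the filter, 4 were 2-fold higher in aggregation (14.8%, against 6.22% of features), 1 was lower, and the median difference was 0.17. Of the 4, Ddit3, Herpud1 and Vldlr passed the filter through the aggregation array alone, where they were high. They are thus no support for a lean of the list. With the array median required on both arrays, 1 of 24 was 2-fold higher and 1 lower. Ddit3, the CHOP factor induced by both stresses, had 548 in aggregation, 92.8 in suspension and 461 on gelatin. Herpud1, an ER membrane protein of protein disposal, had 697, 147 and 988. Vldlr, a lipoprotein receptor, had 253, 74.5 and 24.7, and Trib3, a pseudokinase and Ddit3 target named after its value was seen, had 1081, 468 and 1817. Suspension was low among the R1 arrays for Ddit3, Herpud1 and Trib3, and gelatin was low for Vldlr. Atf4, the factor upstream of these genes, had 13873, 7018 and 7818, a difference of 0.98. Its amino acid targets were mixed, since Sars, a transfer RNA synthetase, gave 0.89 but Asns, asparagine synthetase, -0.07. Shmt2, a mitochondrial serine hydroxymethyltransferase, was the gene that was 2-fold lower, with 390, 1194 and 573. Hspa5, the ER chaperone BiP, had 1234, 2055 and 2211, a difference of -0.72.

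Of 10 p53 response genes, 3 were 2-fold higher in aggregation (30%, against 6.22% of all features) and 1 was lower, with a median of 0.46. One of the 3 was Cdkn1a, and with the mean over probe sets 2 were higher. With the array median required on both arrays, 2 of 8 were higher and 0 lower. Cdkn1a, the CDK inhibitor p21, had 811 in aggregation, 231 in suspension and 363 on gelatin, but its other probe set gave 84.1, 315 and 285, a difference of -1.58. No direction is therefore given for Cdkn1a. Ccng1, an atypical cyclin induced by p53, had 848, 379 and 948, and Plk2 was described above. Sesn1, a sestrin of the same response, had 117, 299 and 187. Cdkn1a passed the filter through the aggregation array alone and Sesn1 through suspension alone, where each was high. These 2 genes are thus no support for a lean of the list. Of 11 heat shock genes, Bag3, a co-chaperone of Hsp70, was 2-fold lower (83.3, 419 and 194) and 0 were higher, and its second probe set gave -1.33. Of 21 metallothionein and redox genes, Hmox1, the heme oxygenase, was 2-fold higher with 4853, 2401 and 3000, and 0 were lower.

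The list of junctions and adhesion had no lean as a whole. Of its 27 genes past the filter, 13 had a difference above 0 and 14 below, and the median was -0.03. At 2-fold, 5 were lower in aggregation (18.5%, against 7.74% of all features) and 0 were higher. The 5 became 3 with 100 added before log2 or with _at probe sets alone, and 1 of 23 where both arrays had to reach the median. Of the 5, Itgb5, Cldn7, Itga6 and Epcam passed the filter through the suspension array alone, where they were high. They are thus no support for a lean of the list. Itgb5, an integrin beta subunit, had 95.4 in aggregation, 359 in suspension and 204 on gelatin, and 108, 249 and 861 with its other probe set. Cldn7, a claudin of tight junctions, had 67.0, 259 and 308, the first of these under the 25th percentile of aggregation (67.2). Itga6, the laminin receptor alpha subunit of ES cells, had 121, 404 and 576. Epcam, an epithelial adhesion molecule, had 152, 355 and 746, and Itgb1, the beta subunit shared by many integrins, had 598, 1238 and 3340. These last 2 were named after their values were seen, and a further Itgb1 probe set gave 0.37. Aggregation was the low array for all 5 genes. Gelatin was within 2-fold of suspension for Cldn7 and Itga6, within 2-fold of both for Itgb5, and at least 2-fold above both for Epcam and Itgb1. Cdh1, the E-cadherin that holds ES cells together, gave a difference of 0.35.

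Matrix genes went both ways. Of 23, 4 were 2-fold higher in aggregation and 3 lower, where the shares of all features were 6.22% and 7.74%. Lama1, the laminin alpha chain of the early basement membrane, had 413 in aggregation, 101 in suspension and 962 on gelatin. Timp2, a protease inhibitor, had 417, 104 and 177, and the gelatinase gene Mmp2 had 245, 51.2 and 92.9. Other probe sets of Timp2 and Mmp2 were dim and did not share one direction. The collagen chaperone gene Serpinh1, with 141, 500 and 1121, the perlecan gene Hspg2, with 307, 743 and 1364, and Col4a1, with 181, 455 and 790, were lower. For these 3 genes gelatin was the high array. Lama1, Timp2 and Mmp2 passed the filter through the aggregation array alone, where they were high. Serpinh1 and Col4a1 passed it through the suspension array alone, where they were high. The genes that passed through 1 array alone are thus no support for a lean of the matrix list. Of 16 genes of primitive and visceral endoderm, Lama1 was higher (6.25%, against 6.22% of all features) and 4 were lower (25%, against 7.74%). Beside Col4a1 these were the endocytic receptor gene Cubn (33.3, 242 and 109), whose other probe set gave 0.88, the growth factor receptor gene Pdgfra (117, 400 and 156) and the keratin gene Krt18 (136, 311 and 530). Dim probe sets of Pdgfra gave -1.18 and 0.09, and one of Krt18 gave 0.10. Lama1 and the 4 lower genes each passed the filter through 1 array alone, where they were high. These counts are thus no support for the endoderm list. Of 27 actin and focal adhesion genes, Acta1, an alpha actin, was higher (245, 33.5 and 217) and the myosin light chain gene Myl6 was lower (115, 326 and 45).

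**Figure D4:**
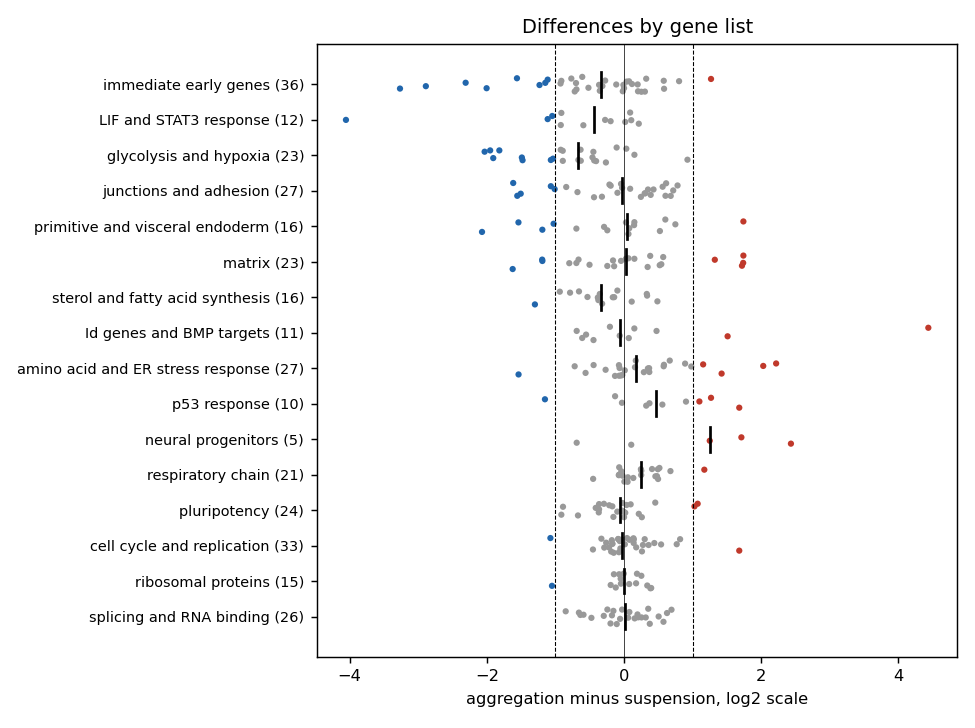
Differences between aggregation and suspension (x axis, log2 scale) of every gene past the signal filter in 16 gene lists, 1 point per gene with random vertical spread, black bars at list medians, and dashed lines at 2-fold. The glycolysis and hypoxia list has its median at -0.67, while those of ribosomal proteins and splicing lie near 0.

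Pluripotency genes were mostly close. Of 24 pluripotency genes past the filter, 2 were 2-fold higher in aggregation, 0 were lower, and the median was -0.06. These were Rex2, with 483 in aggregation, 213 in suspension and 840 on gelatin, and Tbx3, a T-box factor, with 328, 144 and 291. Of 6 streak and mesoderm genes past the filter none was 2-fold apart; the brightest 2, Lefty1 and Bmp4, gave -0.67 and 0.07. Second probe sets of Lefty1 and Bmp4 gave -1.09 and 0.15. Of 4 primitive ectoderm genes, Sox4 was lower (251, 795 and 547), but its other probe set gave 0.17. Trophoblast genes were split, with the transcription factor gene Ascl2 (570, 232 and 258) and the spongiotrophoblast gene Tpbpa (280, 98.7 and 74.9) higher, and the AP-2 factor gene Tfap2a (121, 349 and 17.2) and Krt18 lower, of 8 past the filter.

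Neural progenitor genes were dim in the embryoid bodies, and 5 of 11 on the array passed the filter. Of those 5, 3 were 2-fold higher in aggregation (60%, against 6.22% of all features) and 0 lower. These 3, Nes, Dll1 and Sox1, passed the filter through the aggregation array alone, where they were high, so the count is no support for the list. Nes, the intermediate filament nestin, had 424 in aggregation, 52.5 in suspension, 289 on gelatin and 3945 in neurospheres. Its other probe set gave 33.0, 41.7 and 26.0 on the R1 arrays. Dll1, a Notch ligand, had 448, 115, 464 and 1306, and Sox1, a factor of the neural plate, had 269, 94.6, 142 and 445. Without the signal filter the median of all 11 genes was 0.01, and Fabp7, the brightest of the list in neurospheres at 41867, had 28.2 in aggregation and 67.3 in suspension.

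The other lists of cell types and cell functions held few members. In the fibroblast list, Col1a1 was 2-fold higher (691, 257 and 299), 1 of 6 past the filter, with a dim second probe set at -0.20. Of 4 endothelial genes, Flt1, a VEGF receptor, was higher (226, 32.6 and 124, with a dim second probe set at -0.34) and Pecam1, an adhesion molecule that ES cells also carry, was lower (123, 328 and 383). None of 5 macrophage genes was 2-fold apart, with Cd68 at 0.23 and Laptm5 at 0.21. Of 3 genes of red cells, the embryonic globin gene Hba-x was lower (157, 422 and 155). Of 16 sterol and fatty acid synthesis genes, Scd2, a fatty acid desaturase, was lower with 1058, 2651 and 1875, also by its second probe set (-1.15), and the list median was -0.34. Of 8 interferon and MHC class I genes, Ifitm3 was lower (1513, 3544 and 4239). Of 33 cell cycle and replication genes, Cdkn1a was higher by the brighter probe set, and Ccnd1, cyclin D1, was lower (522, 1134 and 433). Of 15 ribosomal protein genes, Rpl22 was lower at -1.05, but its other probe set gave 0.26. None of 26 splicing and RNA binding genes was 2-fold apart, and the brightest 2, Srsf2 and Ewsr1, gave 0.08 and 0.25. Of 3 nuclear long noncoding transcripts past the filter none was 2-fold apart, and Snhg1 and Meg3 gave 0.97 and 0.09, with -0.74 for a second Meg3 probe set.

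Members in bins 4 and 5 lie where the arrays were closest, and the genes of this paragraph were chosen after their values were seen. Ckb, brain creatine kinase, had 20060 in aggregation, 6230 in suspension and 9072 on gelatin, a difference of 1.68. Ahnak, a large membrane scaffold protein, had 2264, 550 and 2861, so suspension was low. Sdc4, a syndecan of focal adhesions, had 3674, 1330 and 1074, and the glutathione transferase gene Gstt2 had 3358, 1215 and 1143. Here aggregation was high and gelatin matched suspension, as for S100a13 and for the fatty acid binding protein gene Fabp3 (3175, 1327 and 1273). Nupr1, a small stress-induced chromatin protein and a target of Atf4, had 2063, 771 and 1737. On the other side, the linker histone gene H1f10 had 398, 1595 and 1084, and Zfp57, a zinc finger protein that protects imprints, had 681, 1996 and 1137. Twf2, a twinfilin that caps actin filaments, had 1662, 4296 and 3445. Igfbp2, an insulin-like growth factor binding protein, had 2784, 6003 and 2853, and Alpl, the alkaline phosphatase that marks ES cells, had 850, 1798 and 1284.

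The gelatin array did not side with one embryoid body array. Over all 6045 features it was nearer to aggregation in 3094 (51.2%). Among the 376 members higher in aggregation it was nearer to suspension in 228 (60.6%). It was within 2-fold of suspension but not of aggregation in 150, of aggregation but not of suspension in 104, and of both in 100. In the rest it lay at least 2-fold from both, between them in 4, above in 3 and below in 15. Among the 468 lower members it was nearer to aggregation in 274 (58.5%). There it was within 2-fold of aggregation alone in 192, of suspension alone in 126 and of both in 122, and it was 2-fold from both in the rest, with 8 between, 3 above and 17 below. In both directions gelatin thus lay more often near whichever array was lower. Control probe sets were dimmer on gelatin than on both embryoid body arrays, as given above. Their part in where gelatin lay was not tested.

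The lean towards the lower array was not the same across signal. In bin 1 gelatin was nearer to suspension in 153 of 243 higher members and nearer to aggregation in 182 of 301 lower members. The gelatin array also had the lowest dim signals, with a 10th percentile of 17.4 against 29.5 in aggregation and 33.7 in suspension. In bins 4 and 5 gelatin was nearer to aggregation in 21 of 39 higher members and in 24 of 37 lower members, against 1250 of 2418 features there. So for higher members the lean was found in bin 1 and not in bins 4 and 5, while for lower members it was found in both. Of these 39, 16 had gelatin with aggregation alone and 10 with suspension alone. For the 37 it was 12 and 7.

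**Figure D5:**
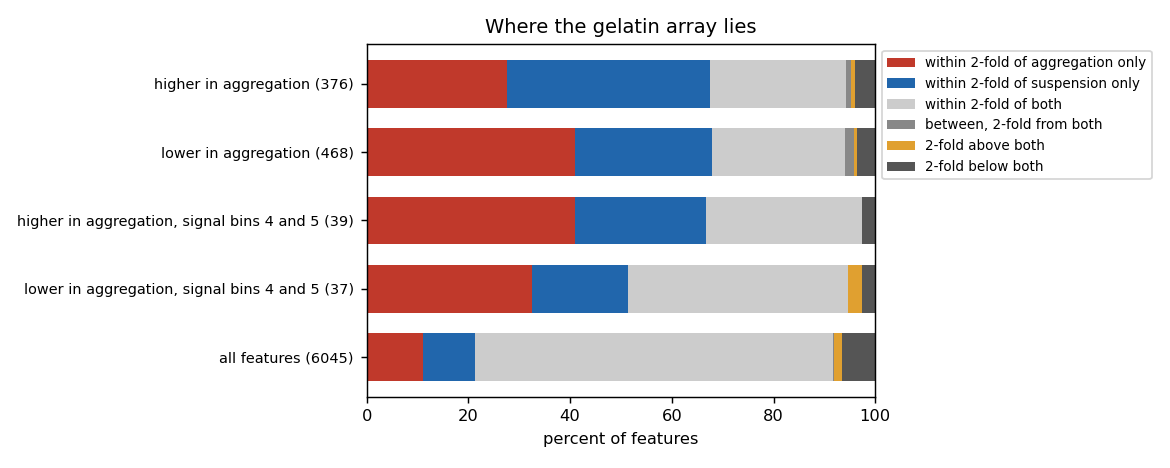
Percent of features (x axis) by where the gelatin array lies against aggregation and suspension, for the members in each direction, those in signal bins 4 and 5 and all features. Among all members gelatin sides more often with the lower array, and in bins 4 and 5 more often with aggregation in both directions.

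A second probe set of the same gene gave the nearest thing to a repeated measurement, though on the same RNA. Among other probe sets that themselves passed the filter, 22 of 28 for genes higher in aggregation had the same direction, and 12 were also 2-fold higher. For genes lower in aggregation 19 of 31 had the same direction, and 9 were also 2-fold lower. Over all features the share with the same direction was 549 of 961 (57.1%). With dim probe sets included it was 53 of 101 (52.5%) and 71 of 125 (56.8%) for the members, close to the 1126 of 2079 (54.2%) for all features. Socs3, Junb and Scd2, and Peg3, an imprinted gene chosen after its values were seen, were among those 2-fold apart by more than 1 probe set past the filter. Id2, Cndp2, Zfp36, Tiparp and 7 of the 8 lower hypoxia genes had no second probe set under their symbol in the annotation used, and the second one of Higd1a was dim.

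At the threshold, the members just inside were Rras and Cop1 with differences of 1.0031 and 1.0055, and Fgfr1 and Dna2 with -1.0041 and -1.0052. Just outside were Srcap and Phtf1 with 0.9984 and 0.9939, and Asf1b and Krt13 with -0.9999 and -0.9997. Genes on either side of the 2-fold line therefore had nearly the same values.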

How the data were processed

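Each title stands for 1 MG_U74Av2 array. Whether the aggregation and suspension arrays came from separate cultures is not stated in the labels. The deposited values are linear signal intensity per probe set, computed by the authors with MAS5 per the submitters' processing notes. No version, setting or target scale of MAS5 is given in the sources used here. The deposited arrays had trimmed means (2% cut from each end) of 32.5 in aggregation, 1485 in suspension, 1490 in gelatin and 29.5 in neurospheres. No detection calls were used.

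Of 12488 probe sets, 66 AFFX controls were left out. Platform annotation paired 10833 of the other 12422 with 1 gene, 396 with several and 1193 with none. Signals were multiplied so that every array's trimmed mean was 500, and log2 was taken after adding 32, which understates differences of dim genes. Probe sets whose signal reached the median of one or both arrays (7006) were kept, and the brightest probe set stood for each gene. Signals of different genes are not comparable. With 1 array a group no test was run, and the number of arrays limits the precision.

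Named genes were the 15 largest differences each way, the marker genes Id2, Cndp2, Zfp36 and Tiparp, and up to 3 members each way of each of 30 gene lists, or the 2 brightest genes of a list without members. The members, lists and rule were chosen with earlier results of these data known. Alternatives covered the value added, the scaling, the signal filter, the choice of probe set and the fold. The code was checked on simulated data. Python 3.11.15, numpy 2.4.6, pandas 2.3.3 and statsmodels 0.14.6 were used.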

Additional observations from a re-analysis of the deposited data

How the results depend on the processing

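No paired analysis was possible because each group has 1 array and the labels carry no shared replicate numbers, and for the same reason no array could be left out. The counts moved by more than 1.5 times with the signal filter, the fold and, in one direction, the value added. Against 376 higher and 468 lower members, requiring the array median on both arrays gave 75 and 109, and no signal filter gave 646 and 828. A threshold of 1.5-fold gave 862 and 1019, and 3-fold gave 126 and 183. With 100 added before log2, 245 were higher. Gelatin was nearer to aggregation in 422 members and nearer to suspension in 422, and this became 92 and 92 with the filter on both arrays, 761 and 713 with none, 968 and 913 at 1.5-fold, and 162 and 147 at 3-fold. Under one median, quantile normalization, loess, 1 added before log2, a mean over probe sets, every probe set counted, or the _at class alone, these counts stayed within 1.5 times. No scaling moved the median difference of all features by over 0.1. Without the signal filter another probe set stood for Cubn and for Pik3c2a, with differences of 0.878 and -0.161. Taking the other probe set reversed Cdkn1a (-1.580), Rpl22 (0.263), S100a13 (-0.361) and Sox4 (0.173). List counts also moved with the filter on both arrays, as they did at 3-fold. Lower members went from 8 to 3 for glycolysis and hypoxia (6 under one median), from 8 to 4 for immediate early genes and from 5 to 1 for junctions and adhesion. Higher members went from 4 to 1 for the amino acid and ER stress response and from 2 to 0 for Id genes and BMP targets. The 3 lower members of the LIF and STAT3 response stayed 3 there and were 2 under one median. Without detection calls, a signal near the bottom of an array could not be told from background.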
